A study of Mus musculus with 6 samples.

Results

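The genes described here are 9 genes of bone morphogenetic protein (BMP) signalling in mouse intrahepatic biliary epithelium, which forms the bile ducts inside the liver. They are the ligand genes Bmp2, Bmp4, Bmp6 and Bmp7, the receptor genes Bmpr1a and Bmpr2, and the target genes Id1, Id2 and Id3. They were taken by symbol from a table of 25302 genes, and each symbol matched 1 row. The table's identifiers are ENSMUSG00000027358 for Bmp2, ENSMUSG00000021835 for Bmp4, ENSMUSG00000039004 for Bmp6, ENSMUSG00000008999 for Bmp7, ENSMUSG00000021796 for Bmpr1a, ENSMUSG00000067336 for Bmpr2, ENSMUSG00000042745 for Id1, ENSMUSG00000020644 for Id2 and ENSMUSG00000007872 for Id3. All 9 were among the 17153 genes tested, those whose normalized reads averaged 10 or more. RNA was sequenced in 3 Control samples, of genotype Sox9fl/fl, and 3 Sox9cKO samples, of genotype Sox9fl/fl:AlbCre+/-. Sox9, a transcription factor gene, was thus floxed in both groups, and Sox9cKO added a Cre recombinase transgene under the albumin promoter, which is active in hepatocytes and in the embryonic precursors they share with biliary cells. The labels give neither age, sex nor the way the cells were isolated.

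BMPs are secreted dimers of the TGF-beta superfamily. They bring together type I receptors such as Bmpr1a and type II receptors such as Bmpr2, and the active receptor phosphorylates Smad1, Smad5 and Smad9, which enter the nucleus with Smad4. The Id genes are classical targets of these Smads, and Id proteins bind helix-loop-helix factors and keep them from DNA. In the liver, Bmp2 and Bmp6 are known as products of sinusoidal endothelial cells, from which they set the hepcidin output of hepatocytes.

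Libraries held between 11883496 and 16191990 reads assigned to genes, of which the 9 genes took between 0.0579% and 0.109%. Levels are normalized counts, for which the reads of a library were scaled by its size factor. Where 3 values are listed for a group, they stand in the order of replicates 1 to 3. Sox9 was at 6043 to 6293 in the Control libraries and at 3165 to 3363 in the Sox9cKO libraries. Reads of the targeted gene were thus lowered to 53.2% of their Control mean (limma adjusted p 0.00501). Counts per gene do not show whether the remaining reads came from intact transcripts. All 12 biliary markers on a list (among them Krt7, Krt19 and Epcam) had reads in every library, and their summed level, of which Spp1 was the largest part in every library, was 76379 to 117402 in Control and 63954 to 97937 in Sox9cKO. So had all 10 endothelial markers. Their summed level ranged from 1439 to 33276 in Control and from 5417 to 34231 in Sox9cKO, with 10 of 10 positive in log2 fold change and 0 called. Of all 17153 genes tested, 9293 were positive and 2.97% were called (limma without pairs, adjusted p under 0.05). The groups did not overlap for 24.2% of them. The sums of the other lists did not overlap between the groups, but each was carried by a few genes. Those of the leukocyte, mesothelial and stellate lists did not describe their lists. For 10 hepatocyte markers the sum was 21285 to 33551 in Control and 41959 to 71231 in Sox9cKO, mostly Alb and Apob. Of these markers 8 were positive and 2 negative (median of the list 0.42), and 3 were called higher (Apob, Tat and Serpina1c). For 8 leukocyte markers it was 1078 to 1207 against 1560 to 1840, of which Csf1r, the 1 called, had means of 761 and 1450, while the other 6 tested were negative (median of the list -0.69). For 5 mesothelial markers it was 419 to 551 against 922 to 1877, of which Msln, the 1 called, had means of 335 and 1408, with 2 positive and 3 negative (median -0.43). For 10 stellate and mesenchymal markers it was 3358 to 3985 against 4039 to 5332, mostly Reln and Rgs5, with 5 of 9 tested positive, 4 negative, 0 called and 0 without overlap (median 0.051). Thy1, a stellate and mesenchymal marker, was at 0 in 1 library, and no other listed marker in the table was at 0 in any library. The part of these cells in the results below was not tested, and in bulk RNA fewer cells of a type and less RNA per cell cannot be told apart.

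Expressed per kilobase of exon, the levels fell into an abundant set and a scarce one. In Control the order of means was Bmp2 (573 ± 598 normalized reads per kilobase, SD, n = 3), Bmp6 (548 ± 153), Id2 (427 ± 114), Id1 (244 ± 59.2), Bmpr1a (201 ± 24.0), Bmpr2 (185 ± 58.0), Id3 (125 ± 43.3), Bmp7 (15.2 ± 3.06) and Bmp4 (7.34 ± 0.822). Neighbours in this order overlapped between libraries, except at 3 steps, from Id2 to Id1, from Id3 to Bmp7 and from Bmp7 to Bmp4. In Sox9cKO the leading gene by mean was Bmp6 (898 ± 216 per kilobase) ahead of Bmp2 (858 ± 540), and these 2 overlapped. Bmp4 and Bmp7 stood in the opposite order at the low end, which is a description with no test. Bmp7 was the higher of the pair per kilobase in all 3 Control libraries (15.1, 12.2 and 18.4 against 7.10, 8.26 and 6.66 for Bmp4), and Bmp4 was the higher in all 3 Sox9cKO libraries (20.4, 10.9 and 21.7 against 9.16, 5.64 and 3.66 for Bmp7).

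**Figure D1:**
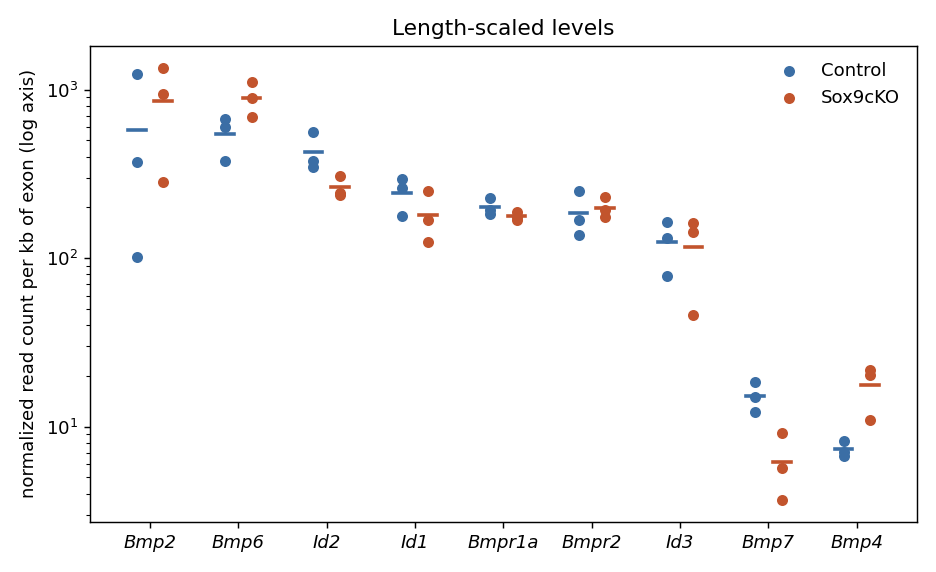
Normalized read count per kilobase of exon (log axis) of each gene in the 3 Control and 3 Sox9cKO libraries; points are libraries and bars are group means. Bmp4 and Bmp7 lie below 22 per kilobase in every library, under the other 7 genes, and differ in order between the groups.

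The comparison of Sox9cKO with Control asked whether BMP ligands, receptors and Id genes differ when Sox9 is reduced. Between group means, Bmp4 was 2.40-fold and Bmp6 1.64-fold higher in Sox9cKO, and Bmp7 was 2.47-fold and Id2 1.62-fold lower. None of these was called by limma without pairs, and which of them passed depended on the fit. A test across all genes without pairs (limma on log2(value + 1), Benjamini-Hochberg adjustment, threshold 0.05) called 0 of the 9 genes, against 2.97% of all genes tested. An unadjusted p under 0.05 was found for 4 of them (Bmp4, Bmp6, Bmp7 and Id2), against 17.8% of all genes. The labels number the samples 1 to 3 in each group, and same-numbered libraries deviated together from their group means. With that number as a block, limma called 2 of the 9, Bmp6 as higher and Id2 as lower, against 8.05% of all genes. Among the count tests on the recovered reads, edgeR's quasi-likelihood test called 0 of the 9 without the block (2.86% of all genes) and the same 2 with it (6.76%). DESeq2 without the block called Bmp7 and Id2 (7.08% of all genes), and limma with a weight for each sample called Bmp7 (6.08%). The p-values without the block measure the spread between samples of a group, and those with it the spread of the differences within pairs. Neither is said to be a spread between animals, since the labels do not say that each sample came from a separate animal.

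Groups did not overlap for 4 of the 9 genes, Bmp4, Bmp6, Bmp7 and Id2, against 24.2% of all genes. All 3 same-numbered pairs moved in one direction for 7 of the 9, up for Bmp2, Bmp4 and Bmp6 and down for Bmp7, Bmpr1a, Id1 and Id2, against 48.5% of all genes. The median log2 fold change over the 9 was -0.18, beside 0.036 over all genes tested.

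**Figure D2:**
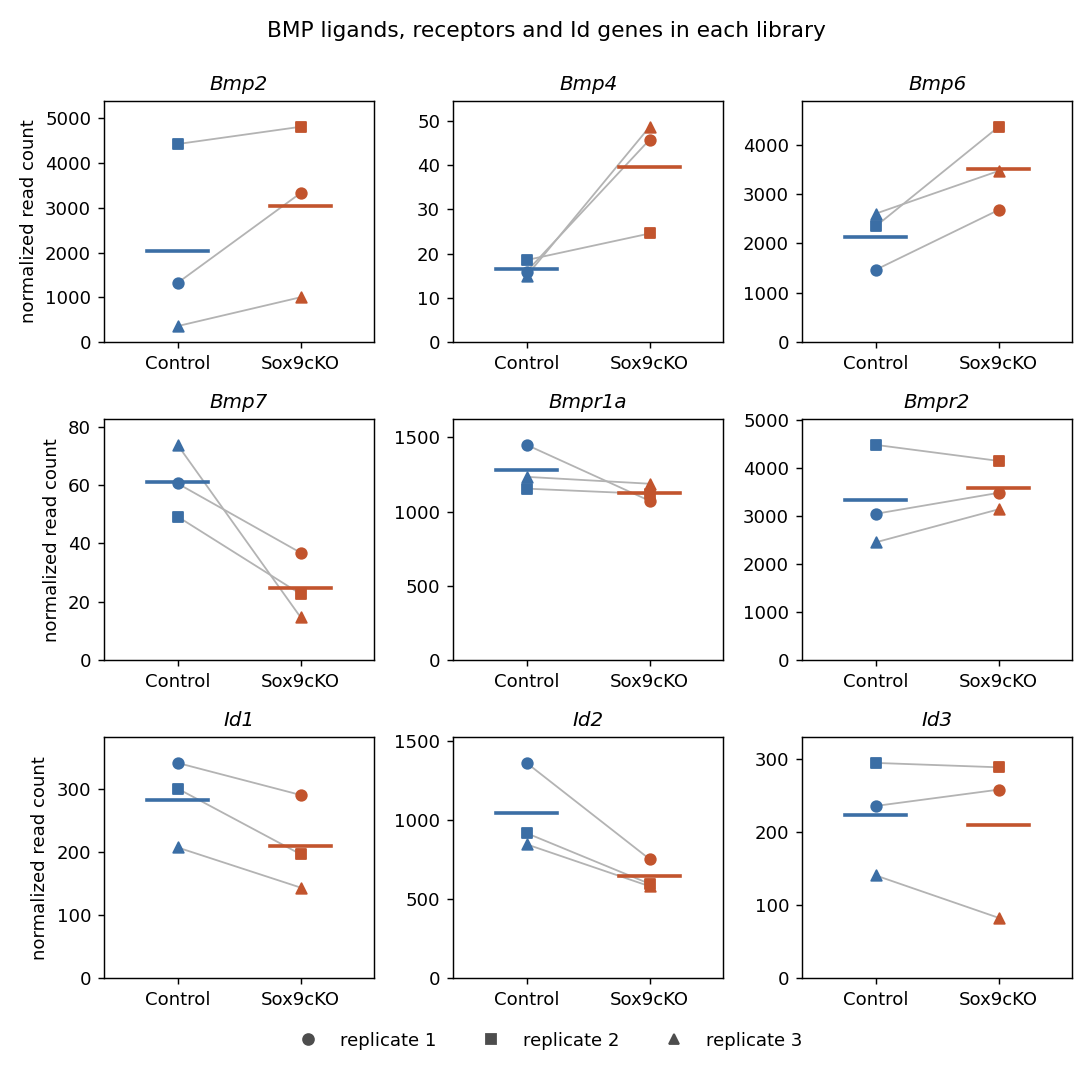
Normalized read count (linear axis from 0) of each gene in the 3 Control and 3 Sox9cKO libraries; symbols give the replicate number, grey lines join same-numbered libraries and bars are group means. The groups separate for Bmp4, Bmp6, Bmp7 and Id2, and Bmp2 spans 360 to 4425 within Control alone.

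Among the ligands, Bmp6 was the one called in the fits of all 6 libraries with the block. BMP6 is the ligand best known for control of iron through hepcidin. Its normalized counts were 1465, 2344 and 2602 in Control and 2677, 4360 and 3466 in Sox9cKO. Every Sox9cKO library was thus above every Control library, by a narrow margin where Sox9cKO replicate 1 met Control replicate 3. The group means were 2137 ± 596 and 3501 ± 842 (SD, n = 3), a log2 fold change of 0.73. Its standard error was 0.26 without the block (limma adjusted p 0.204), and 0.12 with it (limma adjusted p 0.0198, or 0.0548 when pair 3 was left out). Within pairs the Sox9cKO level was 1.83, 1.86 and 1.33 times the Control level, while the summed endothelial markers were at 2.46, 1.03 and 3.76 times. The neighbouring Txndc5, whose exons share 224 bases with those of Bmp6 on the opposite strand, was at 1.49, 1.80 and 1.22 times in the same pairs. Its log2 fold change was 0.57, with limma adjusted p-values of 0.127 and, under the block, 0.0489. Whether the counting used the strand is not given in the sources used here, so reads from the shared bases cannot be assigned.

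Bmp2 was the most variable of the 9 genes. It encodes a close relative of BMP4, made in liver mainly by endothelium. Its normalized counts were 1324, 4425 and 360 in Control and 3331, 4811 and 1004 in Sox9cKO. High and low libraries occurred in both groups, so the groups overlapped widely. On the log2 scale the difference was 0.98 (95% interval -1.21 to 3.16, limma adjusted p 0.647). It was 0.0608 without Control replicate 3, 0.512 without Sox9cKO replicate 2, 1.64 without Sox9cKO replicate 3 and 1.87 without Control replicate 2, and was called in none of these fits. The standard error was 0.93 without the block and 0.25 with it. With the block the 95% interval was 0.37 to 1.58 (limma adjusted p 0.0654). That adjusted p was 0.156, 0.000418 and 0.285 when pair 1, 2 or 3 was left out. Within pairs Bmp2 was at 2.52, 1.09 and 2.79 times the Control level, which is the order of the endothelial sum in those pairs.

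The libraries with the most Bmp2 were Control replicate 2 and Sox9cKO replicates 1 and 2. The same 3 libraries were highest for Bmpr2 and Id3, which makes 3 of the 9 genes with Bmp2 itself, and for 10 of 10 endothelial markers, against 9.84% of all genes tested. They were also highest for 10 of 42 tested pathway genes outside the 9, among them Id4, Gata2, the inhibitory Smad gene Smad6 and Eng, an endothelial co-receptor, all named after their values were seen. Eng was at 1394, 4813 and 221 in Control and at 4127, 5028 and 742 in Sox9cKO. The part of endothelial RNA in these levels was not tested.

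**Figure D3:**
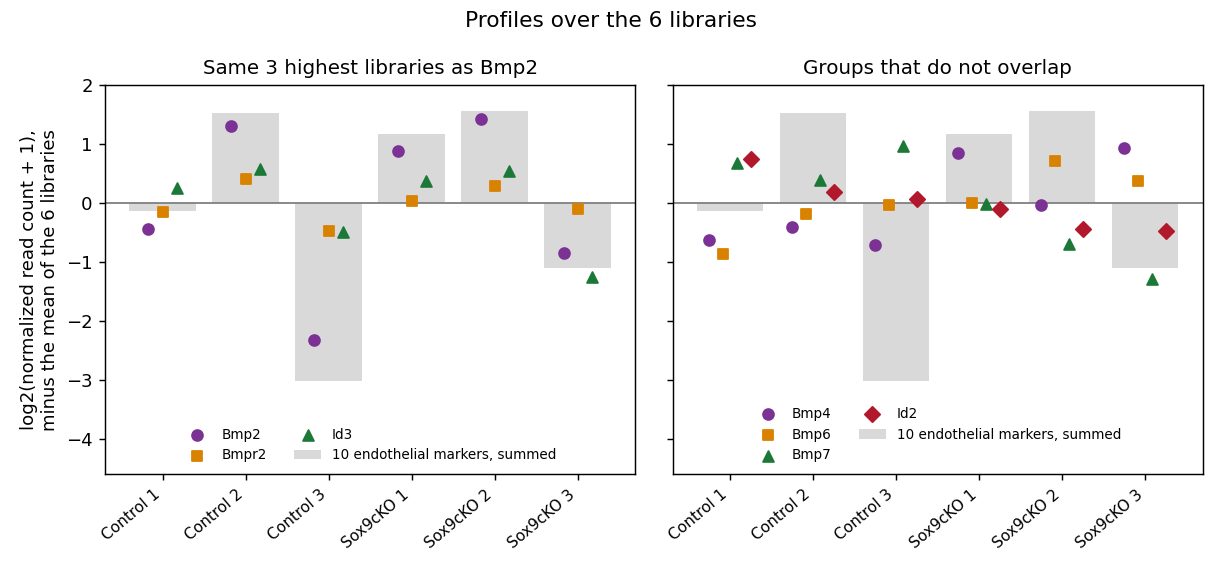
Level in each of the 6 libraries, as log2(normalized count + 1) minus the mean over the libraries; grey bars are the sum of 10 endothelial markers and points are genes. Left, Bmp2, Bmpr2 and Id3 have the same 3 highest libraries as the endothelial sum; right, Bmp4, Bmp6, Bmp7 and Id2 separate the groups.

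The 2 scarce ligands lay on opposite sides of Control, each on few reads, and limma called neither, with or without the block. Bmp4, a ligand of mesenchyme and epithelium during organ formation, was at 15.97, 18.56 and 14.98 normalized counts in Control and at 45.8, 24.6 and 48.7 in Sox9cKO, from 13 to 46 reads a library. Sox9cKO replicate 2 lay close to the Control range and the other 2 Sox9cKO libraries were more than 2 times the highest Control library. The log2 fold change was 1.16 ± 0.35 (SE), with an adjusted p of 0.141 (limma). The exons of Bmp4 share 89 bases with those of Gm15217 on the opposite strand, a gene that is not in the table. Bmp7, known for its part in kidney epithelium and often described as opposing TGF-beta, was at 60.5, 49.2 and 73.7 in Control and at 36.8, 22.7 and 14.7 in Sox9cKO, from 13 to 72 reads. All Sox9cKO libraries were below all Control libraries, with a mean at 40.5% of that in Control. This is a log2 fold change of -1.35 ± 0.37 (SE), with an adjusted p of 0.118 (limma) that passed the threshold with DESeq2 (0.0398) and with sample weights (0.0405). With none of the 9 genes called by limma, Bmp7 had the smallest p. The genes whose profile over the 6 libraries was most like its own were Scara5, Brsk2 and Oat (root mean square difference of centred log2 values 0.152, 0.173 and 0.238).

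Neither receptor was called, with or without the block. Bmpr1a, a type I receptor, was at 1449, 1155 and 1234 in Control and at 1073, 1119 and 1188 in Sox9cKO. Each Sox9cKO library was below its Control partner, but the groups overlapped. Its log2 fold change was -0.18 with a 95% interval of -0.47 to 0.11 (limma, adjusted p 0.520). The antisense gene Gm17110 shares 290 exon bases with Bmpr1a and had 0 to 9 reads a library. Bmpr2, the type II receptor best known from pulmonary arterial hypertension, was at 3046, 4481 and 2453 in Control and at 3483, 4147 and 3140 in Sox9cKO. These ranges overlapped, with a log2 fold change of 0.15 and a 95% interval of -0.39 to 0.68 (limma, adjusted p 0.793). Neither interval reaches a change of 1 on the log2 scale.

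Of the 3 Id genes, Id2 was the one called in any setting. Id2, an inhibitor of helix-loop-helix factors with wide expression in epithelia, had normalized counts of 1359, 916 and 846 in Control and of 752, 596 and 581 in Sox9cKO. Each Sox9cKO library lay below each Control library. The group means were 1040 ± 278 and 643 ± 94.8 (SD, n = 3), a log2 fold change of -0.67. Its standard error was 0.21 without the block (limma adjusted p 0.151), and 0.11 with it (limma adjusted p 0.0188, or 0.0610 and 0.0985 when pair 1 or pair 3 was left out). Within pairs Id2 was at 0.553, 0.651 and 0.687 times the Control level, and DESeq2 without the block called it as well (adjusted p 0.0276).

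Id1 and Id3, the Id genes most used as readouts of BMP signalling, did not pass the test in any setting tried. Id1 was at 341, 301 and 207 in Control and at 291, 197 and 144 in Sox9cKO. It was lower in each of the 3 pairs (0.851, 0.654 and 0.693 times), but Sox9cKO replicate 1 was above Control replicate 3 and the groups overlapped. On the log2 scale this was -0.46 (95% interval -1.16 to 0.24, limma adjusted p 0.487). Id3 was at 235, 294 and 141 in Control and at 258, 288 and 82.6 in Sox9cKO. Replicate 3 was low in both groups and the pairs moved in different directions, at 1.10, 0.980 and 0.588 times. The difference was -0.22 on the log2 scale (95% interval -1.40 to 0.96, limma adjusted p 0.869).

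**Figure D4:**
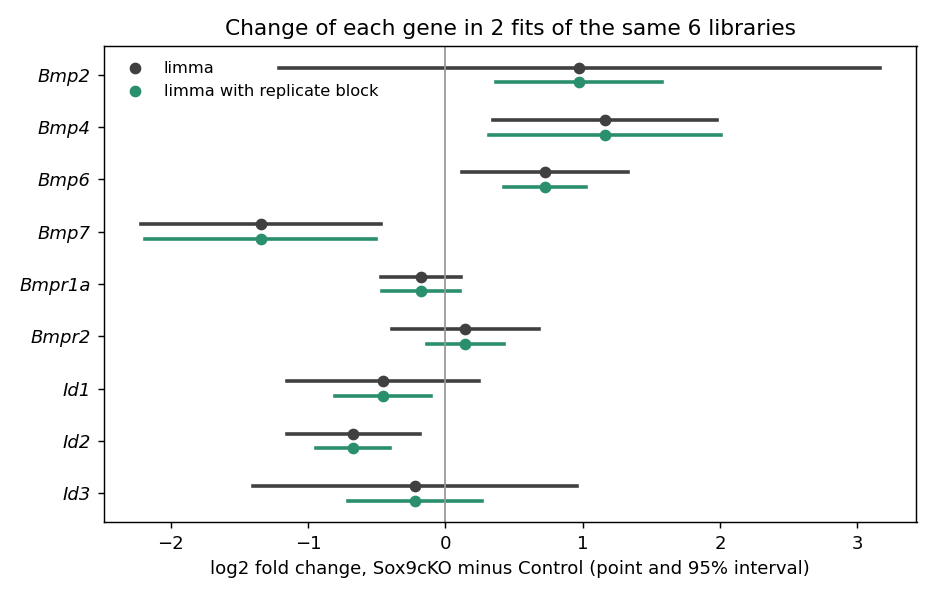
Log2 fold change of each gene, Sox9cKO minus Control (x axis), with its 95% interval, from limma, once without a block and once blocked on replicate number. The point estimates are the same in both fits, and the interval of Bmp2 narrows most, from -1.21 to 3.16 without the block to 0.37 to 1.58 with it.

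Promoter sequence is shown for Id2 and Bmp6, the genes that passed with the block, and for Atoh8, the BMP target described next with the lowest fold change. Each is the 250 bases before the transcription start in RefSeq on GRCm38.p6, where 6 of the 9 genes had an entry (not Bmp2, Bmp7 or Id1). The windows are chr12:25096093-25096342 on the minus strand for Id2, chr13:38345466-38345715 on the plus strand for Bmp6 and chr6:72235578-72235827 on the minus strand for Atoh8. Capitals mark GGCGCC, a GC-rich element described for BMP Smads, and the SOX-type cores ACAAT or ACAAAG, each searched on both strands.
Id2: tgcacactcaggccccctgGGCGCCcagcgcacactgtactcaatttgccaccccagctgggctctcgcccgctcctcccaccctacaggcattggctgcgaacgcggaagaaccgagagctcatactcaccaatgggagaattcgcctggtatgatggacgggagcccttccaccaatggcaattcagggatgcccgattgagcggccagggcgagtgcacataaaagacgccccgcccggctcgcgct
Bmp6: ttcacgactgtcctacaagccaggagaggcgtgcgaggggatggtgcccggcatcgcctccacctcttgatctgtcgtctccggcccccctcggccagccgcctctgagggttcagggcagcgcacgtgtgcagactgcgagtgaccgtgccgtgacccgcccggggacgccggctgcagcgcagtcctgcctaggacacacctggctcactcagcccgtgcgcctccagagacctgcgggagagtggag
Atoh8: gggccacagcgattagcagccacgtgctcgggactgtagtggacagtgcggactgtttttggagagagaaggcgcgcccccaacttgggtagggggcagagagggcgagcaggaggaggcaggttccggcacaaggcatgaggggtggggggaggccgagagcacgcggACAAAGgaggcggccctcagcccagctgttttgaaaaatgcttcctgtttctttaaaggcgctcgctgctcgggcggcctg
The GC-rich element occurred once in the Id2 window, 231 bases before the start. It also occurred once in those of Bmpr1a (198 bases before the start) and Bmpr2 (105 bases), which were not called, so that 3 of the 6 windows held it, and in that of Nbl1 (179 bases). A SOX-type core occurred in none of the 6, once in the Atoh8 window (81 bases before the start) and once in that of Kcp (68 bases), 2 genes described next. Of 32851 RefSeq promoter windows of this length, 9.59% held the GC-rich element and 38.8% a SOX-type core, so these matches are a description of the letters and not of binding.

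The other genes of the pathway, from 6 lists, held 4 genes called without the block among 42 tested, against 2.97% of all genes. The lists were chosen with earlier results of these data known, so this is not an independent comparison. Not every listed gene was tested: 9 were not in the table and are not analysed here, and others were below the filter. Of 16 listed BMP targets outside the 9, 10 were tested, of which 0 were called higher and 1 lower, Atoh8, a BMP-responsive helix-loop-helix factor. Its normalized counts were 339, 232 and 199 in Control and 28.9, 29.3 and 27.2 in Sox9cKO, so that the Sox9cKO libraries were nearly equal and far below Control. The log2 fold change was -3.09 ± 0.24 (SE, limma adjusted p 0.00247), and Atoh8 was called in every alternative run. Bambi, a decoy receptor gene that is also a BMP target and was named after its values were seen, was at 363, 193 and 235 against 146, 102 and 126 (log2 fold change -1.04; limma adjusted p 0.0991 without the block and 0.0140 under it). Of the 10 targets, 1 was thus called without the block, where 2.97% of all genes were, and 2 with it, where 8.05% were. The median over the tested targets was 0.25, beside 0.036 over all genes.

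Of 10 listed receptors and co-receptors outside the 9, 8 were tested, of which 0 were called higher and 1 lower, against 2.97% of all genes in either direction, with a median of -0.22. The called gene was Rgma, which encodes a membrane-anchored BMP co-receptor. It was at 179, 109 and 138 in Control and at 17.9, 4.73 and 14.7 in Sox9cKO, and no Sox9cKO library came near the Control range. The log2 fold change was -3.55 ± 0.48 (SE, limma adjusted p 0.0116). Without Control replicate 1 or Control replicate 3 its adjusted p was 0.0709 or 0.0557 at log2 fold changes of -3.37 and -3.56.

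Of 17 listed antagonists and modulators, 10 were tested, of which 2 were called higher and 0 lower, against 2.97% of all genes in either direction, with a median of 0.10. Nbl1, which encodes a secreted BMP antagonist of the DAN family, was at 86.6, 107 and 86.4 in Control and at 304, 220 and 382 in Sox9cKO. Its lowest Sox9cKO library was above 2 times the highest Control library, and the log2 fold change was 1.66 ± 0.23 (SE, limma adjusted p 0.0133). Kcp encodes a secreted cysteine-rich protein that binds BMPs, and stands in this list as a modulator and not as an antagonist. Kcp was at 69.8, 61.3 and 49.5 in Control and at 119, 166 and 152 in Sox9cKO (log2 fold change 1.26 ± 0.22, SE, limma adjusted p 0.0315). These groups too were apart. Nbl1 lost its call without Control replicate 1 (adjusted p 0.0739), Control replicate 3 (0.0589) or Sox9cKO replicate 1 (0.0503). Of the fits without 1 library, Kcp kept its call in that without Sox9cKO replicate 1, and without Control replicates 1, 2 or 3 or Sox9cKO replicates 2 or 3 its adjusted p was 0.0862, 0.0751, 0.105, 0.111 and 0.0936. With the block, where 8.05% of all genes were called, 2 genes of this list of antagonists and modulators were called lower as well. They were Bambi, which stands in both lists, and Fstl3, named after its values were seen. The log2 fold change of Fstl3 was -0.81 (limma adjusted p 0.0854 without the block and 0.0441 under it).

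Ligands outside the 9, Smads with their regulators, and the helix-loop-helix partners of Id proteins had no called gene by limma, with or without the block. Among 4 tested of 9 listed ligands (1 with an unadjusted p under 0.05, median -0.49) the most abundant were Bmp8b, at 47.9, 50.1 and 63.4 in Control and 76.6, 82.2 and 125 in Sox9cKO (limma adjusted p 0.180), and Bmp8a (log2 fold change -0.44, limma adjusted p 0.520). These are close paralogs, so the split of reads between them is uncertain. Among 10 tested of 11 listed Smads and regulators (1 with an unadjusted p under 0.05, median 0.12) the Smad corepressor genes Skil and Ski were the most abundant, with log2 fold changes of -0.11 and -0.30 (limma adjusted p 0.648 and 0.184). Smad1, Smad5 and Smad4, which carry the BMP signal and were named after their values were seen, had log2 fold changes of 0.10, 0.30 and -0.01, none of them called. Smad9, also named after its values were seen, was below the filter and not tested. It was at 10.9, 12.1 and 9.2 in Control and at 5.0, 4.7 and 2.3 in Sox9cKO, from 2 to 13 reads a library. The 3 helix-loop-helix partner genes (0 with an unadjusted p under 0.05, median 0.34) were Tcf3, Tcf4 and Tcf12, with log2 fold changes of 0.35, 0.34 and 0.09.

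**Figure D5:**
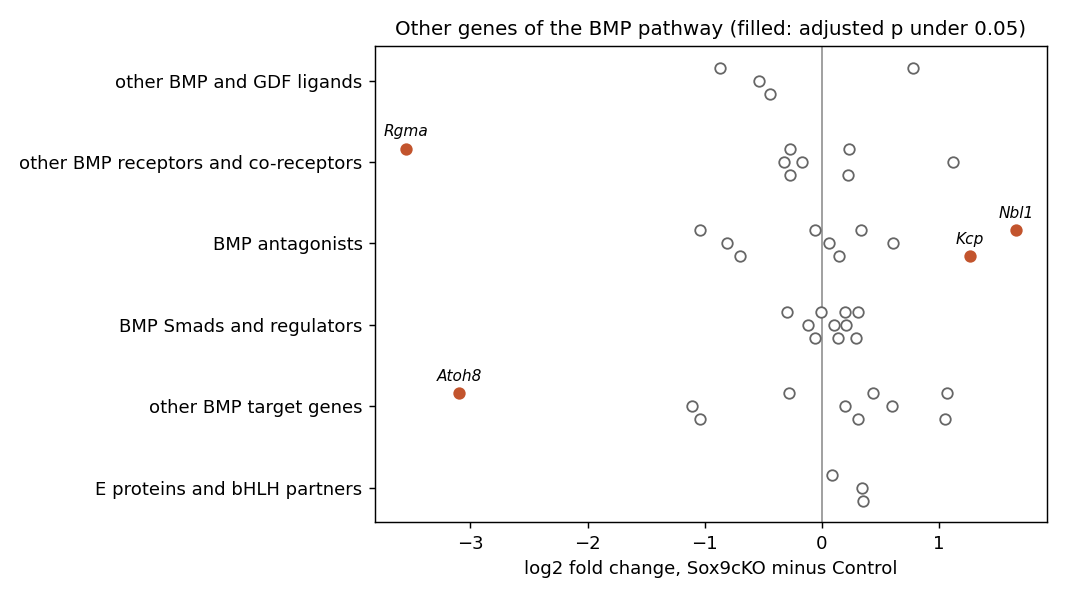
Log2 fold change, Sox9cKO minus Control (x axis), of every tested gene in the 6 lists of other BMP pathway genes (rows); filled points have an adjusted p under 0.05 in limma without the block. The row of antagonists also holds modulators such as Kcp. Rgma and Atoh8 lie below -3 and Nbl1 and Kcp above 1, while all tested Smads and regulators lie between -0.30 and 0.31. Eng, Gata2 and Gata3 also lie above 1, and Msx1 and Bambi lie at -1.11 and -1.04. None of these last genes, named after their values were seen, is filled.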

How the data were processed

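RNA from 6 samples of mouse biliary epithelial cells was sequenced after ribosomal RNA depletion, with stranded libraries and molecular identifiers, per the labels' protocols. The deposited values are a normalized signal, which proved to be gene counts over 1 size factor for each sample. The submitters' processing notes name DESeq2 1.36.0 and GRCm39. The aligner, counter, annotation and use of the identifiers are not given in the sources used here. Divided by a sample's smallest value above 0, 100% of its values came out whole within 0.001 reads.

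Genes whose normalized reads averaged 10 or more were tested on log2(value + 1) with limma 3.58.1 in R 4.3.3 (eBayes with intensity trend, two-sided, Benjamini-Hochberg over all 17153 genes). The pseudocount understates changes of low genes. Alternatives were edgeR 4.0.16 and DESeq2 1.42.0 on the recovered reads, other pseudocounts, filters and scalings, sample weights, the replicate block and fits without 1 sample. The replicate numbers in the labels were taken as pairs because the deviations of same-numbered samples from their group means correlated across genes (0.207, 0.472 and 0.542). This was not computed for samples with different numbers, so it cannot tell whether these are the right pairs. The sample titles also hold a number in brackets, and these numbers lie close together within each same-numbered pair. The labels do not say what the bracketed numbers stand for. The members and lists were chosen with earlier results of these data known. Named genes are the 9 members, at most 5 called genes per list or else its 2 most abundant, and the 3 profiles most like the member with the smallest p. Exon lengths and overlaps came from GENCODE M21 on GRCm38, used without coordinates. The fits were tested on simulated data first.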

Additional observations from a re-analysis of the deposited data

How the results depend on the processing

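All values were recomputed under 18 other settings, and under 3 chosen after seeing the data, which kept the replicate block and left out 1 pair. Against 510 genes called overall and 0 of the 9 BMP genes, sample weights called 1043 and 1 (Bmp7), DESeq2 1214 and 2 (Bmp7, Id2), limma with the replicate block 1381 and 2 (Bmp6, Id2), and edgeR with the replicate block 1160 and 2 (Bmp6, Id2). With the replicate block and without pair 1, 2 or 3, 973, 1556 and 234 genes were called, and 1 (Bmp6), 4 (Bmp2, Bmp4, Bmp6, Id2) and 0 of the 9. Adjusted p-values of Bmp6 were then 0.0448, 0.0327 and 0.0548, and those of Id2 0.0610, 0.0246 and 0.0985. Without 1 library and without the block, 199 to 387 genes and 0 of the 9 were called. The lowest counts were 199 without Control replicate 1, 212 without Control replicate 3, 280 without Sox9cKO replicate 3 and 334 without Sox9cKO replicate 2. The block changed no other call among the 9 genes, Rgma, Nbl1, Kcp and Atoh8. Signs turned for Bmpr2 without Control replicate 3 (-0.051), and for Id3 with sample weights (0.0146), without Control replicate 2 (0.0107), without Sox9cKO replicate 3 (0.35) and with the replicate block but without pair 3 (0.0503). Without 1 library, values of Bmpr2 ran from -0.051 to 0.384 and those of Id3 from -0.545 to 0.35. Under the block without pair 3, Nbl1 and Kcp had adjusted p-values of 0.0887 and 0.147. Without 1 library, Bmp2 ran from 0.0608 (Control replicate 3) to 1.87 (Control replicate 2) around 0.98. The cause was not tested. At a minimum mean of 50, Bmp4 and Bmp7 have no value, and their 13 to 72 reads a library limit what can be said of them.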
